A study of Hansenula anomala with 15 samples.

Results

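Sulfate assimilation and methionine synthesis genes were followed in Wickerhamomyces anomalus, a yeast of fruit fermentations, during apricot fermentation. Genes were taken by the KEGG orthology code in the deposited annotation: ATP sulfurylase, adenylylsulfate kinase, PAPS reductase, 2 subunits of sulfite reductase, homoserine O-acetyltransferase, O-acetylhomoserine sulfhydrylase and methionine synthase. The 8 codes found 7 of the 6571 genes in the table, 1 for each of 7 codes, and the code for O-acetylhomoserine sulfhydrylase found 0. A gene with the RefSeq symbol MET17, the name of that enzyme in Saccharomyces cerevisiae, carried the code K17069, which was not among the 8. It is described beside the 7 genes and not counted with them.

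Polyadenylated RNA was sequenced from whole broth after 0, 16, 32, 48 and 64 h of fermentation, with 3 biological replicates per time point and 15 libraries in all. The 0 h libraries were the starting point, and the labels name no other control. Strain, medium and inoculum are not given in the sources used here, and all groups are described by time alone. Levels are given as CPM, counts per 1 M counts of a library after TMM scaling, as the mean ± SD of the 3 libraries of a time point. A change is called, and the words rose and fell are used, where the adjusted p of the edgeR quasi-likelihood test was under 0.05 over all 6327 genes tested. A level is relative to the other RNA of a library after TMM scaling, not a plain share of its counts. The scaling factors lay between 0.389 (16 h replicate 1) and 1.83 (48 h replicate 2). In whole broth, fewer cells with a transcript and less transcript per cell therefore cannot be told apart.

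In S. cerevisiae, sulfate taken up by the cell is activated by ATP sulfurylase (MET3) and adenylylsulfate kinase (MET14) to PAPS. PAPS is reduced to sulfite by MET16, and sulfite to sulfide by a sulfite reductase built from the products of MET5 and MET10. MET17 joins sulfide to O-acetylhomoserine, which MET2 makes from homoserine, and MET6 methylates the resulting homocysteine to methionine. In wine yeasts this route is known as the source of hydrogen sulfide, and methionine as a precursor of sulfur-containing aroma compounds. Symbols in W. anomalus rest on homology to these genes.

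Library totals were between 17.6 M and 40.1 M counts, so that a floor of 3 counts stood at 0.0748 to 0.171 CPM, covering counting error only. The 7 genes had at least 39 counts in every library and all passed the filter on low counts. Some libraries stood apart from the others of their time. The profile of 64 h replicate 3 correlated more with 32 h replicate 2 (Spearman's rho across 4453 genes, 0.951) than with either replicate of its own time (highest rho 0.837). The profile of 32 h replicate 3 likewise correlated more with a 48 h library (0.965) than with its own time (0.886), and 48 h replicates 1 and 2 with a 32 h library (0.954 and 0.965, against 0.935 and 0.955). In all, 4 of the 15 libraries were closer to another time than to their own. The closest library of its own time had a rho of 0.742 for 16 h replicate 2, against 0.962 for the other 16 h libraries. In 0 h replicate 3, the deviation of a gene from the other 0 h libraries went with gene length across 6327 genes (rho -0.478, against 0.418 in each of the other 0 h libraries). MET5, the longest of the genes described (4272 bp), stood there at 0.536 of the mean of replicates 1 and 2, and MET14, the shortest (659 bp), at 1.78.

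All 7 genes changed over the 5 time points in the F test of edgeR, where 68.5% of all genes tested changed. The adjusted p was between 3.93e-08 for MET3 and 0.0141 for MET2. At 0 h, the 7 genes together summed to 1956, 2144 and 1841 CPM. At 16 h the sums were 189, 123 and 252 CPM. They were 394, 434 and 307 CPM at 32 h, 461, 393 and 527 CPM at 48 h, and 192, 172 and 435 CPM at 64 h. Every later library was below the 0 h libraries, and the lowest sums were at 16 h and in 64 h replicates 1 and 2.

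At 16 h against 0 h, 6 of the 7 genes fell, where 17.8% of all genes fell, and 0 rose, where 22.6% of all genes rose. Without the adjustment the same number, 6, had p under 0.05, as had 3061 of the 6327 genes tested. DESeq2 called 6 of the 7 lower and 0 higher, and over all genes 1258 lower and 1560 higher. In all 7 genes each 16 h library was below each 0 h library, as in 23.3% of all genes. Their median log2 fold change was -4.09, against 0.09 over all genes. The 7 genes were 2.05-fold to 45.3-fold lower at 16 h than at 0 h. Without 16 h replicate 2 they were 1.75-fold to 51.4-fold lower and 6 fell (17.9% of all genes). Without 0 h replicate 3 they were 1.87-fold to 40.6-fold lower and 5 fell (16.8% of all genes), MET16 and MET2 not passing. With scaling by library size alone they were 3.05-fold to 68.0-fold lower and all 7 fell (27.7% of all genes). At 32 h against 16 h, 5 of the 7 rose, where 14.1% of all genes rose, and 1 fell, where 17.7% fell, with a median of 2.13 against -0.06 over all genes. Relative to 0 h, 5 of the 7 were still lower at 32 h (25.9% of all genes fell) and 0 had risen (25.8% of all genes rose).

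Between neighbouring later times, edgeR called 0 of the 7 genes. At 48 h against 32 h, 0 of the 7 and 347 of the 6327 genes tested had an unadjusted p under 0.05. DESeq2 called 0 of the 7 and 2 of all genes, and edgeR called 0% of all genes in either direction. At 64 h against 48 h, 2 of the 7 and 1559 of the 6327 genes tested had an unadjusted p under 0.05. DESeq2 called 0 of the 7 and 876 of all genes at that step. In edgeR 0.0158% of all genes fell and 0% rose. At 64 h against 0 h, 6 of the 7 fell (25.8% of all genes), 0 rose (26.6% of all genes), and the median was -3.21. DESeq2 called 6 of the 7 lower and 0 higher, and over all genes 1767 lower and 1805 higher.

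**Figure D1:**
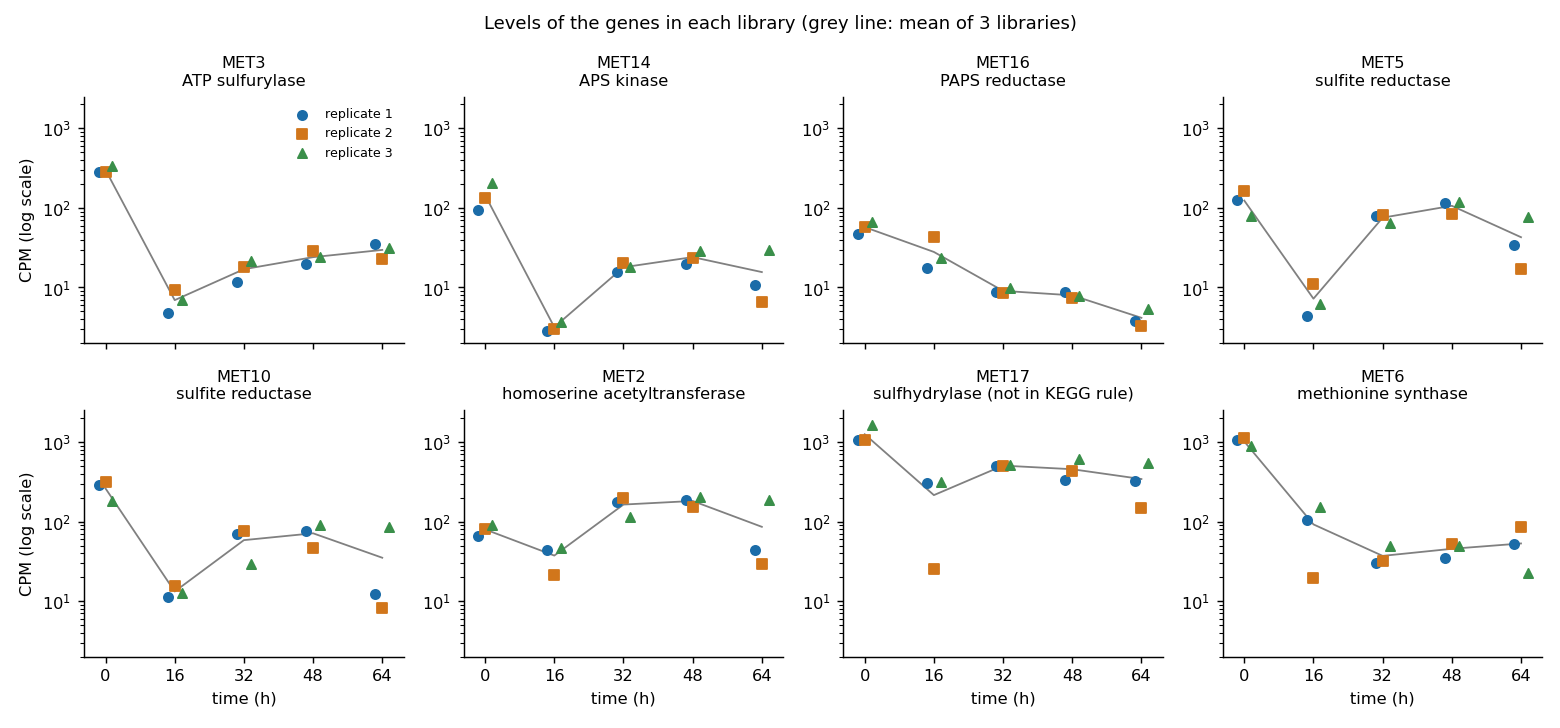
Level of the 7 genes and of MET17 in each library, as CPM on a log scale against time in hours. Points are libraries and lines join the means of 3 libraries. At 16 h the means of MET3 and MET14 were 43.3-fold and 45.3-fold lower than at 0 h, the mean of MET16 was lower at each successive time, and that of MET2 was highest at 48 h.

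The genes of sulfate activation had the largest fold decreases of the 7 at 16 h against 0 h. MET3, ATP sulfurylase (WICANDRAFT_26236), stood at 283, 281 and 337 CPM at 0 h and at 4.76, 9.16 and 6.88 CPM at 16 h. Its level was 11.7, 17.8 and 21.4 CPM at 32 h, 19.8, 28.5 and 23.8 CPM at 48 h, and 35.0, 23.1 and 30.9 CPM at 64 h. The 0 h libraries were far above all others, and the 32 h libraries were above those of 16 h without overlap. MET3 fell 43.3-fold by 16 h (6.93 ± 2.20 against 300.5 ± 31.6 CPM; log2 fold change -5.44 ± 0.38 SE, adjusted p = 7.9e-07). It rose 2.45-fold at 32 h against 16 h (log2 fold change 1.29 ± 0.32 SE, adjusted p = 0.00834). It was 10.1-fold lower at 64 h than at 0 h (adjusted p = 4.64e-06).

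MET14, adenylylsulfate kinase (WICANDRAFT_83796), which phosphorylates the product of ATP sulfurylase, stood at 95.0, 134 and 204 CPM at 0 h and at 2.86, 2.97 and 3.70 CPM at 16 h. It was at 15.5, 20.5 and 17.9 CPM at 32 h, at 19.8, 23.7 and 28.7 CPM at 48 h, and at 10.7, 6.64 and 29.5 CPM at 64 h. The 16 h libraries were the lowest of the series, and 64 h replicate 3 was above the 48 h libraries while replicates 1 and 2 were below them. MET14 fell 45.3-fold by 16 h (log2 fold change -5.50 ± 0.54 SE, adjusted p = 6.47e-06). It rose 5.63-fold at 32 h against 16 h (17.9 ± 2.49 against 3.18 ± 0.459 CPM; adjusted p = 0.00141). At 64 h it was 9.25-fold lower than at 0 h, and 16.7-fold lower without 64 h replicate 3 (adjusted p = 8.63e-05 and 7.76e-06).

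MET16, PAPS reductase (WICANDRAFT_82256), differed from the other genes of the route in the order of its levels. It stood at 47.4, 57.3 and 67.3 CPM at 0 h and at 17.4, 43.0 and 23.5 CPM at 16 h. At 32 h it was at 8.89, 8.51 and 9.80 CPM, at 48 h at 8.77, 7.33 and 7.80 CPM, and at 64 h at 3.79, 3.26 and 5.43 CPM. Its mean was lower at each successive time, and only 32 h and 48 h overlapped among neighbouring times. It fell 2.05-fold by 16 h (28.0 ± 13.4 against 57.3 ± 9.96 CPM; adjusted p = 0.0183). At 32 h it was the 1 gene of the 7 that fell relative to 16 h (3.08-fold, log2 fold change -1.62 ± 0.33 SE, adjusted p = 0.00212). It was 13.8-fold lower at 64 h than at 0 h (4.16 ± 1.13 against 57.3 ± 9.96 CPM; adjusted p = 2.28e-06). The call at 16 h did not pass without 0 h replicate 3, 16 h replicate 1 or 16 h replicate 3 (adjusted p = 0.0563, 0.0758 and 0.0620). With scaling by library size alone, the log2 fold change at 32 h against 16 h was -0.53 (adjusted p = 0.365), in a fit where 4.5% of all genes fell. At 48 h against 32 h it was then 0.25 (adjusted p = 0.824), so that the order of 32 h and 48 h depended on the scaling.

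The sulfite reductase genes MET10 and MET5 declined together at 16 h. MET10, the flavoprotein subunit in S. cerevisiae (WICANDRAFT_98522), stood at 287, 314 and 181 CPM at 0 h and at 11.4, 15.4 and 12.8 CPM at 16 h. It was at 69.9, 76.4 and 28.9 CPM at 32 h, at 76.8, 46.4 and 90.5 CPM at 48 h, and at 12.2, 8.12 and 85.0 CPM at 64 h. The 16 h libraries were below all 32 h and 48 h libraries, and at 64 h replicate 3 was within the 48 h range and the other 2 libraries were below it. MET10 fell 19.7-fold by 16 h (log2 fold change -4.30 ± 0.76 SE, adjusted p = 0.000502). It rose 4.42-fold at 32 h against 16 h (58.4 ± 25.8 against 13.2 ± 2.03 CPM; adjusted p = 0.0298). That call did not pass without 16 h replicate 1, 16 h replicate 3, 32 h replicate 1 or 32 h replicate 2 (adjusted p = 0.0870, 0.0828, 0.0757 and 0.0874).

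Relative to 0 h, MET10 was 4.46-fold lower at 32 h (adjusted p = 0.0172). This did not pass without 32 h replicate 3 (log2 fold change -1.83, adjusted p = 0.0598) or with library size scaling (-1.78, adjusted p = 0.0704). At 64 h it was 7.42-fold lower than at 0 h (adjusted p = 0.00361), and 25.6-fold lower without 64 h replicate 3 (adjusted p = 1.64e-05).

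MET5, the hemoprotein subunit in S. cerevisiae (WICANDRAFT_27211), stood at 127, 165 and 78.4 CPM at 0 h and at 4.40, 11.0 and 6.27 CPM at 16 h. It was at 79.8, 81.0 and 65.1 CPM at 32 h, at 116, 82.9 and 120.3 CPM at 48 h, and at 34.2, 16.9 and 77.4 CPM at 64 h. Unlike at 16 h, where no library reached the 0 h range, the 32 h and 48 h libraries overlapped with it. MET5 fell 17.1-fold by 16 h (log2 fold change -4.09 ± 0.54 SE, adjusted p = 5.65e-05). Its rise at 32 h against 16 h was the largest of the 7 genes (10.4-fold, log2 fold change 3.38 ± 0.52 SE, adjusted p = 0.000384). At 32 h its level was 75.3 ± 8.89 CPM, against 124 ± 43.5 CPM at 0 h, and this difference did not pass the test (adjusted p = 0.220). At 64 h MET5 was 2.88-fold lower than at 0 h (adjusted p = 0.0164), and 4.84-fold lower without 64 h replicate 3 (adjusted p = 0.00137). The 64 h call did not pass without 0 h replicate 2, 64 h replicate 1 or 64 h replicate 2 (adjusted p = 0.0678, 0.0621 and 0.0541), or with library size scaling (adjusted p = 0.131).

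Because both subunits belong to 1 enzyme in S. cerevisiae, their ratio within each library was computed from CPM per kb of gene span, which no scaling between libraries can alter. The MET5 over MET10 ratio was 0.358, 0.426 and 0.351 at 0 h and 0.311, 0.579 and 0.396 at 16 h. It was 0.924, 0.858 and 1.82 at 32 h, 1.22, 1.45 and 1.08 at 48 h, and 2.26, 1.68 and 0.737 at 64 h. All libraries from 32 h on were above all libraries of 0 h and 16 h. The pair was chosen after its values were seen, and no test was made.

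MET2, homoserine O-acetyltransferase (WICANDRAFT_64723), supplies the carbon acceptor of sulfide. With TMM scaling it was the gene of the 7 whose highest mean was not at 0 h. With scaling by library size alone, MET5 too averaged more at 48 h (194, 151 and 190 CPM) than at 0 h (118, 181 and 49.7 CPM). MET2 stood at 66.7, 81.7 and 90.8 CPM at 0 h and at 44.4, 21.2 and 46.5 CPM at 16 h. At 32 h it was at 179, 198 and 114 CPM, at 48 h at 186, 153 and 206 CPM, and at 64 h at 44.0, 29.6 and 184 CPM. All 32 h and 48 h libraries were above all 0 h libraries, and 64 h replicate 3 lay with the 48 h libraries while the other 2 were below every 0 h library. MET2 averaged 37.4 ± 14.0 CPM at 16 h, against 79.7 ± 12.2 CPM at 0 h, and this did not pass the test (log2 fold change -1.09 ± 0.54 SE, adjusted p = 0.124). It passed without 64 h replicate 3 (-1.09, adjusted p = 0.0195) and with library size scaling (-1.79, adjusted p = 0.0343; 27.7% of all genes then fell).

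MET2 rose 4.37-fold at 32 h against 16 h (164 ± 44.0 against 37.4 ± 14.0 CPM; log2 fold change 2.13 ± 0.56 SE, adjusted p = 0.0108). Against 0 h, its log2 fold change at 32 h was 1.04 ± 0.54 SE (adjusted p = 0.121). Without 64 h replicate 3 it was also 1.04 and passed (adjusted p = 0.0200), in a fit where 27.5% of all genes rose. At 64 h against 0 h the log2 fold change was 0.11 (adjusted p = 0.879). Without 64 h replicate 3 it was -1.12 (adjusted p = 0.0304), in a fit where 25.1% of all genes fell, so that the direction at 64 h rested on that library.

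The gene with the symbol MET17 (WICANDRAFT_79530), whose name in S. cerevisiae belongs to the sulfhydrylase that takes up sulfide, had a higher mean per kb of gene span than any of the 7 genes at every time point, between 163 ± 125 CPM per kb at 16 h and 949.9 ± 254 CPM per kb at 0 h. It stood at 1059.9, 1057 and 1637 CPM at 0 h and at 302, 25.4 and 317 CPM at 16 h. At 32 h it was at 499.8, 499.6 and 515 CPM, at 48 h at 329.7, 428 and 607 CPM, and at 64 h at 328, 148 and 551 CPM. The 0 h libraries were above all others, and 16 h replicate 2 was far below the rest. MET17 fell 5.82-fold by 16 h (215 ± 164 against 1251.1 ± 334 CPM; adjusted p = 0.00985), and 4.04-fold without 16 h replicate 2 (adjusted p = 0.00670). Its log2 fold change of 1.23 ± 0.67 SE at 32 h against 16 h did not pass (adjusted p = 0.176), and with library size scaling it was 2.49 (adjusted p = 0.00863; 44.4% of all genes then rose).

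Against 0 h, MET17 had a log2 fold change of -1.31 at 32 h (adjusted p = 0.116), which passed without 16 h replicate 2 (adjusted p = 0.0178). At 64 h it was 3.65-fold lower than at 0 h (adjusted p = 0.0329). The 64 h call passed without 64 h replicate 3 (adjusted p = 0.0210) and did not pass without any 1 of the 0 h libraries or without 64 h replicate 1 or 2 (adjusted p = 0.0503 to 0.107), or with library size scaling (log2 fold change -1.42, adjusted p = 0.0983).

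MET6, the methionine synthase that needs no cobalamin (WICANDRAFT_26555), stood at 1049, 1111 and 883 CPM at 0 h and at 104, 19.8 and 153 CPM at 16 h. It was at 29.9, 31.6 and 49.7 CPM at 32 h, at 34.8, 51.6 and 50.02 CPM at 48 h, and at 52.2, 84.6 and 22.5 CPM at 64 h. The 0 h libraries were far above all others, and the later groups overlapped. MET6 fell 11.0-fold by 16 h (92.1 ± 67.2 against 1014 ± 118 CPM; log2 fold change -3.46 ± 0.64 SE, adjusted p = 0.000652), and 7.91-fold without 16 h replicate 2 (adjusted p = 0.000581). At 32 h it was 27.4-fold lower than at 0 h (37.1 ± 11.0 against 1014 ± 118 CPM; adjusted p = 6.18e-05), and at 64 h 19.1-fold lower (adjusted p = 0.000121).

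At 32 h against 16 h, the step at which 5 genes of the route rose, MET6 had a log2 fold change of -1.31 ± 0.59 SE that did not pass (adjusted p = 0.10). Without 16 h replicate 2, its lowest 16 h library, MET6 fell by 1.79 on the log2 scale (adjusted p = 0.00702), in a fit where 21.2% of all genes fell. With library size scaling the log2 fold change was -0.08 (adjusted p = 0.910). MET6 thus made up a changing share of the summed CPM of the 7 genes. The share was 53.6%, 51.8% and 47.9% at 0 h and 55.0%, 16.2% and 60.5% at 16 h. It was 7.59%, 7.28% and 16.2% at 32 h, 7.54%, 13.1% and 9.49% at 48 h, and 27.2%, 49.1% and 5.18% at 64 h.

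**Figure D2:**
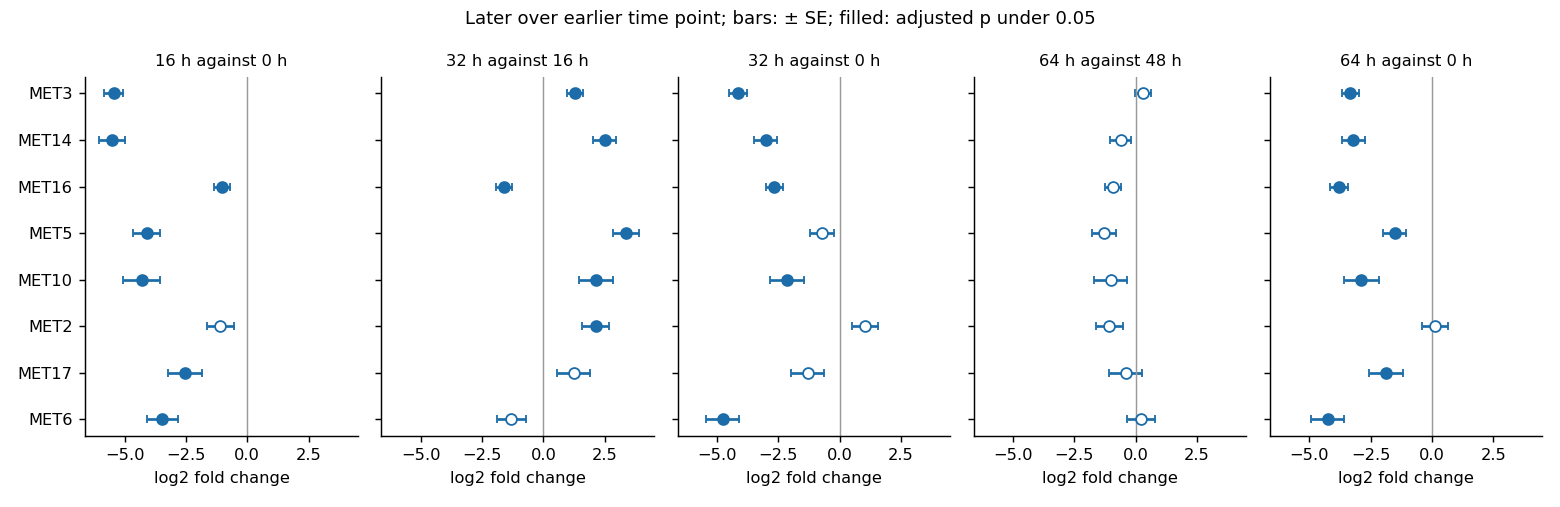
Log2 fold change of each of the 7 genes and of MET17 in 5 comparisons, with bars of 1 SE; filled points passed the test of edgeR. At 16 h against 0 h the 7 values lay between -5.50 and -1.04, and at 32 h against 16 h those of MET16 and MET6 were below 0 and the other 5 above.

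Per kb of gene span, MET6 was the most abundant of the 7 at 0 h and 16 h, and MET2 from 32 h on. The place of MET2 at 64 h rested on replicate 3, without which MET2 averaged 25.99 CPM per kb and MET6 29.6 CPM per kb. MET6 averaged 439 ± 51.1 CPM per kb at 0 h, followed by MET14 with 219 ± 83.8 and MET3 with 196 ± 20.6 CPM per kb. The libraries of MET14 and MET3 overlapped with each other at 0 h and not with those of MET6. At 48 h MET2 averaged 128 ± 18.9 CPM per kb, against 36.5 ± 6.82 for MET14 and 19.7 ± 4.01 for MET6. MET16 was the least abundant at 0, 32, 48 and 64 h (20.5 ± 3.56, 3.24 ± 0.237, 2.84 ± 0.262 and 1.49 ± 0.404 CPM per kb), and MET5 at 16 h (1.69 ± 0.802 CPM per kb). Ranked by mean CPM per kb among the 6327 genes, MET6 was at place 2942 at 32 h, against 296 at 0 h, and MET2 at place 606 at 48 h, against 2365 at 16 h.

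The MET2 over MET6 ratio of CPM per kb, free of the scaling between libraries, compares the enzyme at the entry of the carbon branch with the last enzyme. The ratio was 0.104, 0.120 and 0.168 at 0 h and 0.697, 1.75 and 0.498 at 16 h. It was 9.74, 10.2 and 3.75 at 32 h, 8.71, 4.83 and 6.71 at 48 h, and 1.38, 0.571 and 13.3 at 64 h. The 3 lowest values were those of 0 h, and 64 h replicate 3 had the highest value of the series while the other 64 h libraries lay within the range of 16 h. These genes were chosen after their values were seen, and no test was made.

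**Figure D3:**
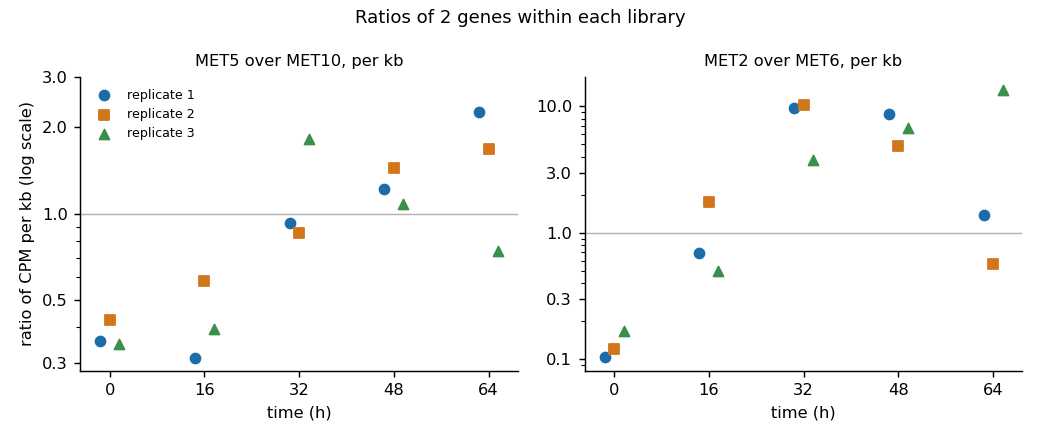
Ratio of CPM per kb of MET5 over MET10 (left) and of MET2 over MET6 (right) in each library, on a log scale against time in hours; the line marks a ratio of 1. MET5 over MET10 averaged 1.25 ± 0.187 at 48 h, against 0.378 ± 0.0414 at 0 h, and MET2 over MET6 averaged 6.75 ± 1.94 at 48 h, against 0.131 ± 0.0333 at 0 h.

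At 64 h the replicates differed more than at 48 h for most of the genes. In 64 h replicates 1 and 2, MET14, MET16, MET10, MET5 and MET2 were below the 48 h range. In 64 h replicate 3, MET16, MET5 and MET6 were below it, MET10 and MET2 within it, and MET3 and MET14 above it. The share of all genes outside the 48 h range in a single library was not counted, so that these places describe the 7 genes only. MET6 was lower in 64 h replicate 3 (22.5 CPM) than in replicates 1 and 2 (52.2 and 84.6 CPM), and the level of MET3 in replicate 3 lay between those of the other 2 libraries. With all libraries, MET16 had a log2 fold change of -0.94 at 64 h against 48 h (adjusted p = 0.102) and MET5 of -1.31 (adjusted p = 0.117).

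Without 64 h replicate 3, 5 of the 7 genes fell at 64 h against 48 h, in a fit where 8.34% of all genes fell. The log2 fold change was then -2.81 for MET10 (adjusted p = 0.00363), -2.30 for MET2 (adjusted p = 0.00427) and -2.06 for MET5 (adjusted p = 0.00991). It was -1.47 for MET14 (adjusted p = 0.0149) and -1.18 for MET16 (adjusted p = 0.0362). Without 16 h replicate 2, MET16 also passed (-0.94, adjusted p = 0.0296). MET3 did not pass with or without 64 h replicate 3 (log2 fold change 0.30 and 0.27).

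**Figure D4:**
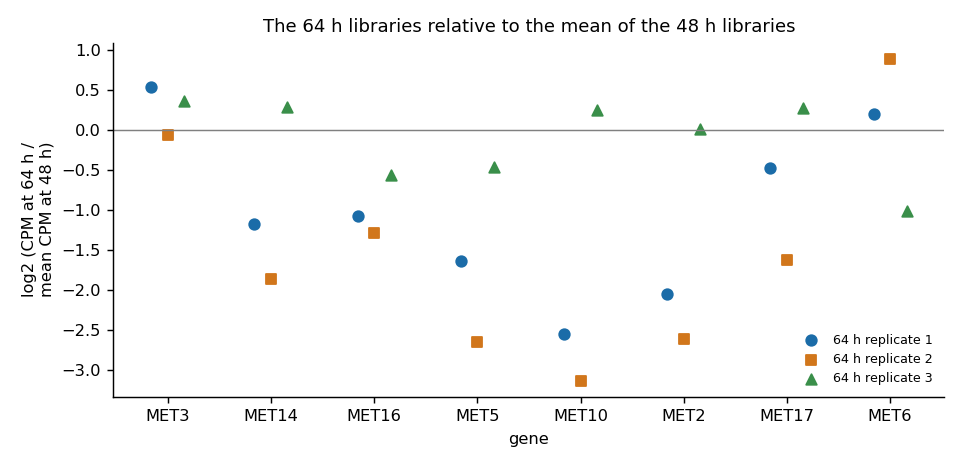
Level at 64 h minus the mean level at 48 h, as log2 CPM, for each gene and each 64 h library. Replicates 1 and 2 were below 0 for MET14, MET16, MET10, MET5 and MET2 (-3.13 to -1.07), where replicate 3 lay between -0.55 and 0.29.

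Other genes of sulfur amino acid metabolism were taken from 6 lists. Of 34 entries 27 were found, as 33 genes, all of them tested. At 16 h against 0 h, 16 of the 33 fell (17.8% of all genes) and 0 rose (22.6%), with a median log2 fold change of -1.16. Unadjusted, 17 had p under 0.05 (3061 of the 6327 genes tested), and DESeq2 called 17 (2818 of all genes). Without 0 h replicate 3 or 16 h replicate 2, 1 rose (1331 and 1263 of all genes). At 32 h against 16 h, 4 rose (14.1% of all genes) and 3 fell (17.7%), with a median of 0.18. At 32 h against 0 h, 4 rose (25.8% of all genes) and 16 fell (25.9%), with a median of -1.09. By 64 h, relative to 0 h, 4 had risen (26.6% of all genes) and 14 fallen (25.8%), with a median of -0.94. At 48 h against 32 h and 64 h against 48 h, 0 passed in edgeR. The unadjusted p was under 0.05 for 2 and 10 of them (347 and 1559 of the 6327 genes tested). DESeq2 called 0 and 6 of them (2 and 876 of all genes). Without 64 h replicate 3, 3 rose and 6 fell at 64 h against 48 h (629 and 529 of all genes). Without 16 h replicate 2, 2 rose and 4 fell (483 and 378), and without 0 h replicate 3, 1 rose (182). Leaving out 16 h replicate 2 gave at 32 h against 16 h 9 risen and 6 fallen (1238 and 1344 of all genes). Without 64 h replicate 3, 6 rose at that step (1001 of all genes). Without 32 h replicate 1 or 2, or 16 h replicate 3, the fallen numbered 1, 2 and 2 (671, 689 and 860 of all genes). At 64 h against 0 h, 2 rose without 0 h replicate 1 or without 64 h replicate 3 (1351 and 1511 of all genes).

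Genes from aspartate to homoserine, the branch that feeds MET2, all fell. The 3 of 3 genes fell at 16 h, 32 h and 64 h relative to 0 h, where 17.8%, 25.9% and 25.8% of all genes fell, with medians of -2.11, -2.47 and -2.88. HOM3, aspartate kinase (WICANDRAFT_89860), stood at 108, 126 and 109.7 CPM at 0 h and at 3.52, 2.71 and 3.46 CPM at 16 h. It was at 1.92, 4.01 and 4.35 CPM at 32 h, 3.93, 5.44 and 5.86 CPM at 48 h, and 4.89, 3.69 and 6.60 CPM at 64 h. Every later library was below 7 CPM. HOM3 was 35.4-fold lower at 16 h than at 0 h (log2 fold change -5.15 ± 0.38 SE, adjusted p = 9.29e-07) and 22.6-fold lower at 64 h (adjusted p = 6.18e-07). HOM2, aspartate semialdehyde dehydrogenase, was 4.31-fold lower at 16 h than at 0 h (115 ± 18.2 against 494 ± 166 CPM; adjusted p = 0.00114).

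Methyl cycle and folate genes were counted as a single list of 9. Its folate genes, among them SHM2 and MET13, serve the supply of the methyl group that MET6 transfers. The list also holds methyl cycle entries such as SAM2 and SAH1, so that its counts do not describe that supply alone. Relative to 0 h, 4 of the 9 fell at 16 h (17.8% of all genes), 5 at 32 h (25.9%) and 5 at 64 h (25.8%). At 64 h 1 had risen (26.6% of all genes). SHM2, serine hydroxymethyltransferase (WICANDRAFT_64376), averaged 223 ± 72.7 CPM at 16 h, against 1192 ± 179 CPM at 0 h (5.33-fold lower, adjusted p = 0.000320). At 32 h it averaged 60.6 ± 15.1 CPM and was 3.68-fold lower than at 16 h (adjusted p = 0.00266), which did not pass with library size scaling (adjusted p = 0.182). MET13, methylenetetrahydrofolate reductase (WICANDRAFT_31391), averaged 2.01 ± 0.386 CPM at 32 h, against 47.0 ± 18.9 CPM at 0 h (23.2-fold lower, adjusted p = 0.000283). It was 6.57-fold lower at 32 h than at 16 h (adjusted p = 0.0119). This step did not pass without 16 h replicate 3 or 32 h replicate 1 (adjusted p = 0.0524 and 0.0527), or with library size scaling (log2 fold change -1.47, adjusted p = 0.0958). A second gene with the code of this reductase, MET12, was 3.73-fold lower at 16 h than at 0 h (log2 fold change -1.90, adjusted p = 0.00387), and its log2 fold change was -2.69 without 16 h replicate 2.

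Of 6 uptake, export and regulator genes, 3 were higher at 32 h than at 16 h (14.1% of all genes rose) and 0 lower (17.7% fell). The 3 were the regulators MET4, MET31 and the gene with the MET30 code. At 32 h against 0 h, 3 of the 6 were higher (25.8% of all genes rose) and 1 lower (25.9% fell). The entries SUL1, SUL2, MMP1, MET28 and MET32 of this list found no gene, so that no sulfate permease was among the 6. MET4, the transcriptional activator of the route in S. cerevisiae (WICANDRAFT_76598), stood at 41.1, 71.0 and 26.1 CPM at 0 h, at 34.2, 8.45 and 20.1 CPM at 16 h and at 119, 149 and 216 CPM at 32 h. It was at 274, 325 and 324 CPM at 48 h, and at 135, 74.9 and 138 CPM at 64 h. All 32 h and 48 h libraries were above all earlier libraries. MET4 was 7.71-fold higher at 32 h than at 16 h (log2 fold change 2.95 ± 0.51 SE, adjusted p = 0.000783). It was 2.51-fold higher at 64 h than at 0 h (adjusted p = 0.0301). The 64 h call did not pass without 0 h replicate 1 or 3 or without 64 h replicate 1 or 3 (adjusted p = 0.0726 to 0.107).

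MET31, a zinc finger factor that recruits MET4 in S. cerevisiae (WICANDRAFT_26988), was 7.13-fold higher at 32 h than at 16 h (50.0 ± 7.63 against 7.03 ± 4.09 CPM; adjusted p = 0.000947). WICANDRAFT_26630, which carries the KEGG code of MET30, the F-box protein that restrains MET4 in S. cerevisiae, was 8.02-fold higher at 32 h than at 0 h (236 ± 51.8 against 29.4 ± 6.38 CPM; adjusted p = 7.26e-05). CBF1, a DNA-binding partner of MET4 in S. cerevisiae, was 3.58-fold lower at 16 h than at 0 h (2.22 ± 1.10 against 7.94 ± 0.509 CPM; adjusted p = 0.0011).

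Siroheme synthesis and PAP removal genes, which serve sulfite reductase and clear the by-product of PAPS reduction, had 3 of 4 members lower at 16 h than at 0 h (17.8% of all genes fell), 2 at 32 h (25.9%) and 1 at 64 h (25.8%). MET22, the bisphosphate nucleotidase, averaged 5.68 ± 1.36 CPM at 16 h, against 32.3 ± 3.53 CPM at 0 h (adjusted p = 0.000817). MET1, the methyltransferase of siroheme synthesis, averaged 7.17 ± 7.10 CPM at 16 h, against 40.9 ± 12.5 CPM at 0 h (log2 fold change -2.51, adjusted p = 0.00484). Leaving out 16 h replicate 2 gave a log2 fold change of -3.73 for MET1. The call at 64 h was that of MET1 (log2 fold change -1.68, adjusted p = 0.0283). It did not pass without 0 h replicate 1 or 2, without 64 h replicate 1 or 2 (adjusted p = 0.0551 to 0.0934), or with library size scaling (0.143), and the log2 fold change was -2.38 without 64 h replicate 3.

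Of 8 cysteine synthesis and transsulfuration genes, 4 were lower (17.8% of all genes fell) and 0 higher (22.6% rose) at 16 h than at 0 h, and 4 lower (25.8%) and 1 higher (26.6%) at 64 h. STR3, cystathionine beta-lyase, was 10.7-fold lower at 16 h than at 0 h (4.85 ± 4.08 against 52.0 ± 19.5 CPM; adjusted p = 0.00367). CYS4, cystathionine beta-synthase, was 4.42-fold lower at 16 h than at 0 h (14.8 ± 9.05 against 65.4 ± 4.47 CPM; adjusted p = 0.00199). A gene with the KEGG code of cysteine synthase, WICANDRAFT_26717, was 8.58-fold higher at 32 h than at 16 h (221 ± 60.7 against 25.8 ± 13.0 CPM; adjusted p = 0.000762). Another with that code, WICANDRAFT_82539, was 5.62-fold higher at 32 h than at 0 h (22.0 ± 9.26 against 3.93 ± 0.647 CPM; adjusted p = 0.00261).

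Glutathione genes had 1 of 3 members lower at 16 h than at 0 h (17.8% of all genes fell), 2 at 32 h (25.9%) and 1 at 64 h (25.8%), and 0 higher. The call at 16 h, for GSH2 (adjusted p = 0.0433), did not pass in 10 of 15 fits that left out 1 library, and that at 64 h, for GSH1 (adjusted p = 0.0350), in 4 of 15. The second call at 32 h, for GLR1 (adjusted p = 0.0242), did not pass without 0 h replicate 1, 32 h replicate 1 or 32 h replicate 2 (adjusted p = 0.0588, 0.114 and 0.0666) or with library size scaling (0.295). GSH2, glutathione synthetase, was 2.05-fold lower at 32 h than at 0 h (5.90 ± 0.293 against 12.1 ± 2.70 CPM; adjusted p = 0.00478), which did not pass with library size scaling (adjusted p = 0.314).

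**Figure D5:**
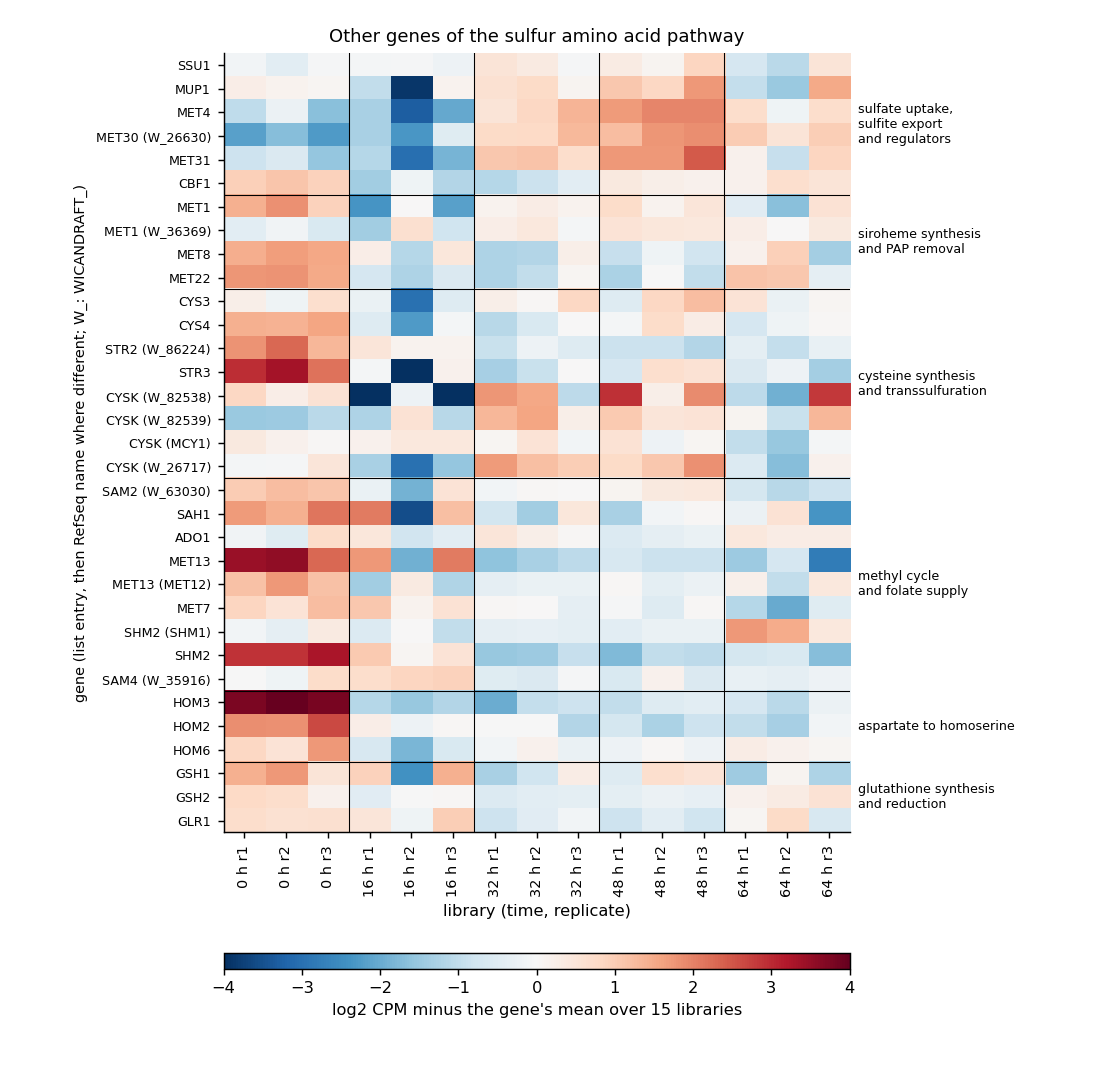
Log2 CPM of the 33 other genes in each library minus the gene's mean over the 15 libraries, grouped by list. Columns are libraries in order of time, and red is above and blue below a gene's own mean. The genes differed in the time of their highest mean, which was 0 h for HOM3, SHM2 and MET13 and 48 h for MET4, MET31 and the gene with the MET30 code.

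The genes whose pattern was most like the mean standardised log2 CPM of the 7 were sought among 4446 other genes with at least 10 CPM on average, by Pearson's r over the 15 libraries, as a description. The nearest were WICANDRAFT_61589, annotated as acetylornithine aminotransferase (r = 0.930), and ARG3, ornithine carbamoyltransferase (r = 0.927), both of arginine synthesis. They were followed by WICANDRAFT_99077, annotated as a calcium transporting ATPase (r = 0.924), WICANDRAFT_58478, annotated under nitrogen metabolism and as a sulfite oxidase component (r = 0.911), and CYK3, a cytokinesis gene (r = 0.906). All libraries share the time course, and all but 4 of the 15 were closest to a library of their own time. The values of r therefore describe a likeness of level over time.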

How the data were processed

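The authors sequenced polyA RNA from whole fermentation broth in 15 libraries, which the labels call biological replicates of 5 time points. The labels give TRIzol extraction and a VAHTS Universal V6 library kit. HISAT2, HTSeq and fastp are named in the submitters' processing notes, with no version or role, and the build was not given in the sources used here. The deposited values are raw counts, whole numbers that the authors did not normalise. All 6571 identifiers matched locus tags of the RefSeq assembly Wican1, which gave symbols and gene spans; without a genome, reads shared by near-identical genes were not assessed and no coordinates or sequences are printed.

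The counts were taken into edgeR 4.0.16 (R 4.3.3). After filterByExpr by time, 6327 genes were left, and they were scaled by TMM and fitted by the quasi-likelihood method with a mean per time point over all 15 libraries (common biological coefficient of variation 0.418, 10 residual degrees of freedom). Contrasts were later over earlier, Benjamini-Hochberg adjusted over all genes tested, with a threshold of 0.05. SE is approximate, derived as the log2 fold change over the square root of F. CPM per kb divides CPM by the gene span, which may hold introns and UTRs. No molecular identifiers are named in the sources used here, so floors cover counting error only. The steps were also run on simulated counts that held no library standing apart and no trend with gene length. That run cannot tell how either affects the calls reported here.

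The genes and lists were chosen with earlier results of these data known. All genes of the KEGG rule are named. From each other list at most 2 called genes per comparison, those with the largest change, could be named, and the 5 genes of most similar pattern. Alternatives were DESeq2 1.42.0, scaling by library size or by median-of-ratios size factors, no filter on low counts, the replicate number as a block, each library left out in turn, and 16 h replicate 2 and 64 h replicate 3 left out together. Replicate numbers were checked for pairing: of 30 same-numbered pairs of libraries at different times, 7 had deviations correlated above 0.1 (median r -0.0961), and the numbers were not taken to pair the samples.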

Additional observations from a re-analysis of the deposited data

How the results depend on the processing

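The counts of the 7 genes called were within 1.5 times of those reported under DESeq2, median-of-ratios size factors, no filter on low counts and the replicate block. With the replicate block, 6 fell and 0 rose at 16 h against 0 h, as without it (1022 and 1236 over all genes). In that fit MET4 and MET1 at 64 h against 0 h had adjusted p of 0.0611 and 0.0556, and GSH2 at 16 h against 0 h of 0.0681. Of the 15 libraries, 2 correlated best with libraries of their own number. With library size scaling, 0 of the 7 fell at 32 h against 16 h (285 over all genes). With 16 h replicate 2 and 64 h replicate 3 both left out, 2 fell at 32 h against 16 h, 1 rose at 32 h against 0 h and 5 fell at 64 h against 48 h. Over all genes these counts were 1526, 1979 and 998. With each library left out in turn, the 3 counts of the 7 genes were 1 to 2, 0 to 1 and 0 to 5. Over all genes they were 671 to 1344, 1293 to 1846 and 0 to 529. The other counts of the 7 genes were 5 to 7 fallen at 16 h, 4 to 5 risen at 32 h against 16 h, 4 to 5 fallen at 32 h against 0 h and 5 to 7 fallen at 64 h against 0 h. Over all genes they were 923 to 1202, 558 to 1238, 1194 to 1860 and 1314 to 1846.

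Of 1008 log2 fold changes of the 7 genes and MET17 under alternatives, 957 kept their direction and their side of the threshold. The direction turned, with the cause not tested, for values that had not passed. With library size scaling MET3 and MET6 were at -0.37 and -0.63 at 64 h against 48 h, and MET16 and MET17 at 0.25 and 0.28 at 48 h against 32 h. Over the fits that left out 1 library, MET10 at 48 h against 32 h was at -0.039 (without 32 h replicate 3) to 0.53, and MET2 at -0.053 (without 32 h replicate 3) to 0.31. MET6 at 64 h against 48 h was at -0.29 (without 64 h replicate 2) to 0.59. MET2 at 64 h against 0 h was at -1.12 (without 64 h replicate 3, also without both libraries) to 0.52, at -0.00695 without 0 h replicate 1, and at -0.12 with the replicate block.

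Library size scaling moved the median log2 fold change of all genes. Relative to 0 h, 16 h shifted by -0.69, 32 h by 0.50 and 64 h by 0.26, with medians of the 7 genes at -4.78, -2.14 and -2.71. Relative to the time before, 32 h shifted by 1.16, 48 h by 0.45 and 64 h by -0.67, with medians at 3.24, 0.75 and -1.42. Risen genes were 26.1% of all calls at 16 h against 0 h with this scaling and 56.0% with TMM, 90.8% and 44.3% at 32 h against 16 h, 69.0% and 49.9% at 32 h against 0 h, and 61.2% and 50.7% at 64 h against 0 h. Over all genes, 620 rose and 1753 fell at 16 h against 0 h with it (1432 and 1126 with TMM), 2809 and 285 at 32 h against 16 h (889 and 1118), and 890 fell at 32 h against 0 h (1641). Without both libraries 1445 rose at 32 h against 16 h. At 64 h against 48 h, where 0 rose and 1 fell, DESeq2 called 876 genes (67.2% of them risen, 287 fallen); the numbers risen and fallen were 124 and 39 with median-of-ratios size factors, 15 and 181 with library size scaling, 927 and 998 without both libraries, and 0 and 0 with the replicate block. At 48 h against 32 h DESeq2 gave 2 fallen. Leaving out 1 library gave 558 to 1238 risen and 671 to 1344 fallen at 32 h against 16 h, and 0 to 629 risen and 0 to 529 fallen at 64 h against 48 h.

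Of the 33 other genes, 18 rose and 0 fell at 32 h against 16 h with library size scaling (44.4% and 4.5% of all genes). At that step 9 rose and 8 fell without both libraries (1445 and 1526 of all genes), and 5 fell with DESeq2 (1338 of all genes). At 32 h against 0 h, 9 fell with library size scaling (890 of all genes). At 64 h against 48 h, 3 rose and 3 fell with DESeq2 (876 of all genes called, 287 of them fallen). With median-of-ratios size factors 1 rose (124 of all genes), and with library size scaling 2 fell (181 of all genes). Without both libraries 3 rose and 10 fell at that step (927 and 998 of all genes). In that fit 1 rose at 16 h against 0 h (1423 of all genes). The smallest count of a gene of the 7 in any library was 39, so that the spread between the 3 libraries of a time point, not counting error, limits these comparisons.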

Other observations

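Other genes of the lists are described here as singled out after their values were seen. MUP1, a methionine permease in S. cerevisiae (WICANDRAFT_58469), stood at 275, 256 and 244 CPM at 0 h and at 118, 15.6 and 257 CPM at 16 h. It was at 354, 392 and 252 CPM at 32 h, at 486, 409.7 and 778 CPM at 48 h, and at 120.3, 82.5 and 659 CPM at 64 h. The lowest values were in 16 h replicate 2 and in 64 h replicates 1 and 2, and 64 h replicate 3 lay within the 48 h range. The F test over the 5 time points did not pass (adjusted p = 0.225). CYS3, cystathionine gamma-lyase (WICANDRAFT_78354), averaged 226 ± 66.6 CPM at 0 h, 101 ± 68.6 CPM at 16 h, 245 ± 71.4 CPM at 32 h, 297.3 ± 156 CPM at 48 h and 205 ± 57.3 CPM at 64 h, and its F test did not pass either (adjusted p = 0.196).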
